A study of Mus musculus with 12 samples.

Results

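Bone marrow was compared with lung in mice without leukaemia, using all 6 libraries that the labels assign to control animals, of 12 in the series. The 3 marrow control and 3 lung control libraries came from VECadCre-tdTomato mice that had received no transplant. In this line the VE-cadherin (Cdh5) promoter drives Cre recombinase, which switches on a red fluorescent protein. Per the labels, the RNA of both groups came from Vecad+ endothelial cells, the lining cells of blood vessels, and was made into libraries with kits for very low RNA input. The other 6 libraries were from marrow and lung of mice of the same line given acute myeloid leukaemia (AML) cells with Trp53(R172H/Δ). The AML libraries entered the gene filter, the scaling between libraries and the estimate of spread, and were not themselves compared. The labels name no age and do not say whether the replicates are separate mice, so p-values reflect only how far these samples spread, part of which may be technical. The question was how the 2 tissues differed across all genes with enough counts in the 12 libraries, which were 18147 of the 55291 symbols.

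Marrow vessels are mostly thin-walled sinusoids through which new blood cells leave, and they lie among red cell precursors, leukocyte precursors, stroma and bone. Lung vessels are mostly capillaries pressed against the alveolar epithelium, in which type 1 cells exchange gas and type 2 cells secrete surfactant. A red cell precursor divides several times while it fills with haemoglobin and assembles the spectrin skeleton under its membrane, and it then loses its nucleus.

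Total depth of libraries 1, 2 and 3 was 21.8, 21.4 and 17.0 M counts for marrow. For lung it was 24.1, 27.2 and 28.6 M counts. Across genes (not independent replicates), Spearman correlations were 0.970 to 0.974 within marrow, 0.959 to 0.971 within lung and 0.655 to 0.713 between the tissues. No library was a copy of another, since chi-square values per gene within a group were 53.0 to 161. Counts of Ddx3y, Kdm5d and Uty, on the Y chromosome, were 0 or 1 in every control library and those of Eif2s3y were 0 to 2. Xist, transcribed from the inactive X chromosome of female cells, measured 81.7, 103 and 67.7 CPM in marrow and 16.7, 59.9 and 15.5 in lung (log2 fold change 1.46 ± 0.57, adjusted p = 0.0425 by edgeR). That call was lost without any library but lung library 2 (adjusted p of 0.0580 to 0.146), and without lung library 2 the difference was 2.37.

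The labelled cell type was checked first against its markers. The 22 pan-endothelial genes held 0.0270%, 0.0402% and 0.0397% of all counts in the marrow libraries, and 0.376%, 1.31% and 0.513% in the lung libraries. Genes of other cells held more in both tissues. In marrow, 17 genes of haem synthesis and globins held 1.92%, 2.09% and 2.23% of the counts, 20 genes of the red cell membrane held 1.28%, 1.38% and 1.07%, and 17 osteolineage genes, those of bone-forming cells, held 1.95%, 1.30% and 2.03%. In lung, 21 genes of alveolar type 2 cells held 20.1%, 18% and 21.7%. The type 2 genes also held 0.112%, 0.336% and 0.130% in the marrow libraries, with marrow library 2 highest. Defining endothelial transcripts were thus detected in all 6 libraries but made up a small part of the counts. In bulk RNA, fewer cells of a type and less RNA per cell cannot be told apart, and the part played by the other cells in the results that follow was not tested.

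**Figure D1:**
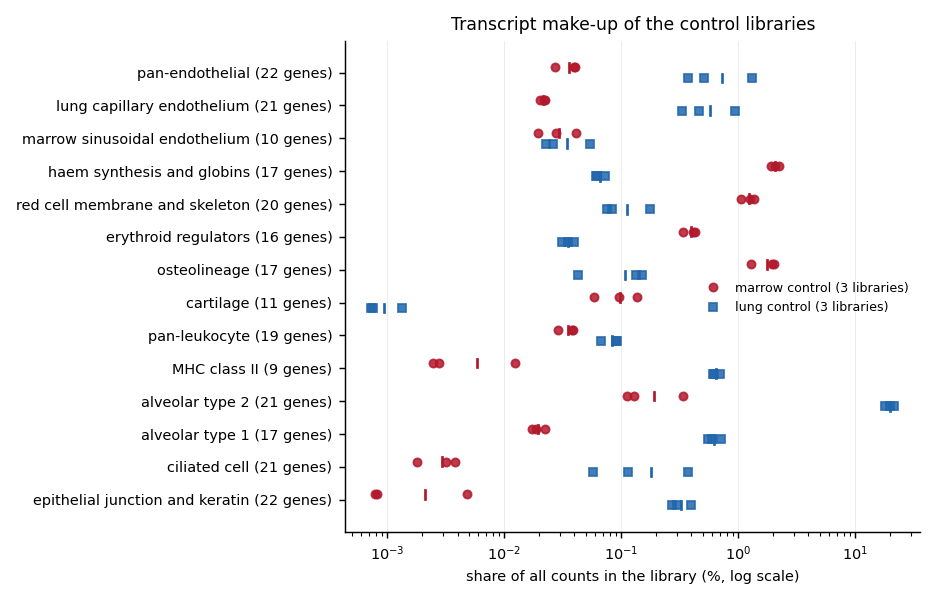
Share of all counts (%, log scale) held by 14 gene lists in each of the 3 marrow control (circles) and 3 lung control (squares) libraries, with vertical bars at the group means. Red cell and osteolineage lists lie to the right in marrow, alveolar and other epithelial lists lie to the right in lung, and the pan-endothelial list stays at or under 1.31% in all 6 libraries.

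The tissues differed in most genes. The edgeR quasi-likelihood test with Benjamini-Hochberg adjustment called 11645 genes at an adjusted p under 0.05, which is 64.2% of those tested. Of these, 5343 were higher in marrow (29.4% of tested genes) and 6302 were lower (34.7%). The lung side held more of the large differences. By more than 32-fold, 1654 genes were lower in marrow and 590 were higher, while 4530 and 2621 passed 4-fold. The median log2 fold change over all tested genes, written throughout as marrow minus lung, was -0.20, with quartiles at -2.29 and 1.27. Counts of gene lists below are to be read against these shares, because a list with about 3 in 10 members called in each direction would look like any other genes. Some tested genes passed the filter only through the AML libraries. With only the 6 control libraries in the filter, scaling and fit, 16567 genes were tested, of which 5293 were higher in marrow and 6560 lower.

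**Figure D2:**
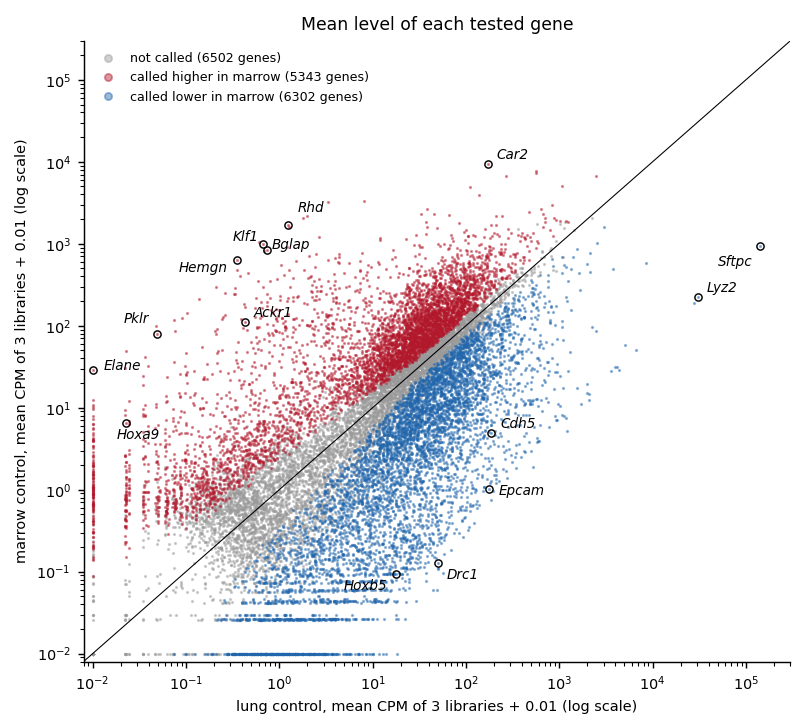
Mean CPM (counts per M counts, scaled by TMM) in marrow control against lung control for the 18147 tested genes, each with 0.01 added, both axes on a log scale, coloured by call, with the line of equality and 15 genes marked. Hemgn, Klf1 and Rhd lie far above the line, Sftpc, Epcam and Drc1 lie far below it, and Elane sits at the left edge with 0 counts in lung.

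Genes of red cell precursors dominated the marrow side. Of the 15 largest rises among abundant genes, 11 are known from erythroid cells, among them Hemgn, Cldn13, Tspo2, Add2, Rhd, Ermap, Slc4a1, Klf1, Car1 and Kel (Klf1 lies at chr8:84901928-84905291 and Hemgn at chr4:46393989-46413506, mm10), and the other 4 were the bone and cartilage genes Bglap, Bglap2, Col2a1 and Car3, the last also a muscle and fat enzyme. Of 16 erythroid regulators, 15 were higher in marrow, none was lower and Ldb1 was not called (log2 fold change -0.30 ± 0.13 (SE), adjusted p = 0.0657 by edgeR), with a median of 4.36 against -0.20 for all genes. Klf1, a zinc finger factor that activates globin and membrane genes, measured 838, 826 and 841 CPM in the marrow libraries and 0.782, 0.691 and 0.740 CPM in the lung libraries. The groups were far apart and each was tight (log2 fold change 10.14 ± 0.53 (SE), adjusted p = 2.21e-07). Gata1, the zinc finger factor that drives red cell fate, measured 446, 437 and 372 CPM against 1.22, 0.844 and 1.26 (8.56 ± 0.54, adjusted p = 5.45e-07). Hemgn, found in the nuclei of blood-forming cells, had the largest rise of all under the naming rule, with 734, 651 and 540 CPM against 0.434, 0.192 and 0.407 (10.85 ± 1.14, adjusted p = 1.14e-05). Epor, the erythropoietin receptor, measured 274, 290 and 179 CPM against 3.56, 4.18 and 3.33 (6.07 ± 0.45), so that transcripts of the receptor, unlike those of Klf1 and Hemgn, stood clearly above 1 CPM in every lung library. Foxo3, a forkhead factor of red cell maturation and many other cells, had a small difference that was still free of overlap, with 36.0, 32.8 and 37.3 CPM against 17.6, 15.6 and 19.5 (1.01 ± 0.24, adjusted p = 0.00344).

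All 17 tested genes of haem synthesis and globins were higher in marrow, with a median of 4.93, and the list runs from the first enzyme to the globin chains. Alas2, the erythroid form of the first enzyme, measured 562, 465 and 434 CPM in marrow and 20.5, 8.33 and 13 in lung. Its difference was 5.13 ± 0.98 (adjusted p = 0.000856). Urod, Cpox, Ppox and Fech, which carry out later steps and insert the iron, were higher by 3.81, 5.13, 3.51 and 4.02, and Slc25a37 (mitoferrin 1), which brings iron into the mitochondrion, by 4.59. The globin gene Hbb-bs measured 3706, 5077 and 5828 CPM against 143, 113 and 75.8 (5.46 ± 1.24, adjusted p = 0.0025), a value made uncertain by near-identical globin copies. Haem enzyme counts in lung were low but not absent, since Fech stood at 74.6, 63.1 and 77.5 CPM in the lung libraries. Of 19 tested red cell membrane genes, 17 were higher in marrow, 1 was lower and 1 was not called, with a median of 8.99, the highest of all the lists. Slc4a1 (the anion exchanger band 3), Rhd and Kel, which carry blood group antigens or anchor the skeleton in their human forms, were higher by 10.17, 10.42 and 10.10, and the skeleton proteins Sptb and Ank1 by 8.27 and 8.99. The lower gene was Slc2a1, a glucose transporter, with 3.90, 4.92 and 4.73 CPM in marrow against 89.3, 38.8 and 30.9 in lung (-3.55 ± 0.37, adjusted p = 1.11e-05). Aqp1, a water channel of red cells and also of lung capillaries, was the gene not called. It measured 1658, 2596 and 1043 CPM in marrow against 251, 1187 and 301 in lung, and the groups overlapped through lung library 2 (1.61 ± 0.74, adjusted p = 0.0763). Without lung library 2 its difference was 2.66 with an adjusted p of 0.0117.

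The stretches of DNA just before the start of 4 of these genes are shown because they hold the letters AGATAA, or TTATCT on the other strand, which GATA factors such as Gata1 recognise, and because all 4 genes were higher in marrow. They were read from the RefSeq promoter table of build GRCm38.p6. Each gives the 120 bases before the start, 5′ to 3′ along the gene, with the motif in capitals.
Alas2 (chrX:150547297-150547416, plus strand): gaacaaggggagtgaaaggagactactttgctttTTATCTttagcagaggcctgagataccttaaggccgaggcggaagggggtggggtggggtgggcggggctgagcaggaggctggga
Epor (chr9:21963577-21963696, minus strand): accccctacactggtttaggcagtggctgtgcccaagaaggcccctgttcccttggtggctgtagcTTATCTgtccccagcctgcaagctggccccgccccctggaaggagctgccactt
Kel (chr6:41704326-41704445, minus strand): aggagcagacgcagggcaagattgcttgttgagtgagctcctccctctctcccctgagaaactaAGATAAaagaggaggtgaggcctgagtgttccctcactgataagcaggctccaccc
Rhd (chr4:134864416-134864535, plus strand): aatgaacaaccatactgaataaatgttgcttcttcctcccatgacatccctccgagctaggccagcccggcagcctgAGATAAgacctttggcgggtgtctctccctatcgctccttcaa
The motif begins 86 bases before the start in Alas2, 54 in Epor, 56 in Kel and 43 in Rhd. Among the 3 erythroid lists, 53 windows of 41 genes were in the table, and 4 of them (7.55%) held the motif within these 120 bases, against 2.65% of the 16069 windows of all tested genes. In the full 300-base windows, from 250 bases before to 50 after the start, the counts were 10 of 53 (18.9%) and 7.30%. Such shares were not particular to the erythroid lists, since several lists that were mostly lower in marrow had shares as large, on few windows: 4 of 13 (30.8%) for megakaryocyte, 3 of 11 (27.3%) for club cell, 3 of 7 (42.9%) for MHC class II and 3 of 16 (18.8%) for alveolar macrophage genes. Over all abundant genes the difference was small. Of 1382 windows of genes higher in marrow by a log2 fold change over 2 and with at least 20 CPM there, 8.47% held it, against 6.18% of 2169 windows of the matching genes higher in lung. Shares for 4 other motifs lay close together on the 2 sides: 4.05% and 4.1% for CCACACCC, the CACCC box bound by Klf1, 2.89% and 3.32% for GAGGAAGT (PU.1), 3.11% and 2.81% for TGTTTAC (forkhead factors), and 1.23% and 1.57% for CACTCAAG or CACTTGAG (NKX2-1 type). The GC box, GGGCGGGGC, was in 21.3% on both sides. Both strands were searched for each, and a match describes letters only.

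Iron handling and megakaryocyte genes did not move as one group with the red cell genes. Of 14 iron genes, 8 were higher in marrow and 4 lower, with a median of 0.97. The transferrin receptors Tfrc and Tfr2, which bring iron into cells, were higher by 3.25 and 8.78, and the exporter Slc40a1 (ferroportin) by 3.18, while Hfe, Bmp6 and Hmox1, which sense iron, signal to the liver and break down haem, were lower by 2.60, 2.67 and 2.96 on the log2 scale. Of 17 megakaryocyte and platelet genes, 12 were lower in marrow, 4 were not called and 1 was higher, with a median of -3.49. Itga2b, the platelet integrin chain CD41, measured 2.42, 0.853 and 4.61 CPM in marrow against 47.6, 11.9 and 28.5 in lung (-3.49 ± 0.72, adjusted p = 0.00136). Gp6, the platelet collagen receptor, had 0 counts in the marrow libraries and 129 in the lung libraries, and was at least 32.8-fold higher in lung where the floor was set at 3 counts for the whole group. Gp9, which joins the platelet von Willebrand factor receptor, went the other way, with 53.0, 77.5 and 64.3 CPM in marrow against 3.30, 1.38 and 1.85 (4.90 ± 1.07, adjusted p = 0.00203).

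Genes of the cell cycle were higher in marrow as full lists. All 25 DNA replication genes and all 23 mitosis genes were higher there, with medians of 5.52 and 6.78. Mcm7, part of the helicase that opens DNA for copying, measured 1335, 1409 and 1080 CPM in marrow and 28.1, 29.9 and 29.2 in lung (5.45 ± 0.26, adjusted p = 1.94e-07). Aurka, a kinase of the mitotic spindle, measured 329, 279 and 294 CPM against 1.48, 3.80 and 2.11 (6.93 ± 0.45, adjusted p = 5.86e-07). Bub1 and Mad2l1, which hold the cell until the spindle is attached, were higher by 4.58 and 5.69. The smallest difference in the mitosis list was 4.44, so no member of it lay near the overall median. The 25 replication genes held 1.80%, 1.74% and 1.69% of the marrow counts and 0.0301%, 0.0378% and 0.0321% of the lung counts.

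The machinery of translation and respiration was also higher in marrow, by less. All 43 listed cytosolic ribosomal protein genes were higher, between 2.43 and 3.87, with a median of 3.06. Rplp0, of the ribosomal stalk, measured 1809, 2627 and 2155 CPM against 260, 269 and 210 (3.16 ± 0.22, adjusted p = 8.96e-07). They took 2.15%, 3.32% and 2.98% of the counts in marrow and 0.333%, 0.434% and 0.245% in lung. Of 40 respiratory chain genes of the nuclear genome, 39 were higher, with a median of 1.86, and Sdha was not called. Uqcrfs1, the Rieske protein of complex III, was higher by 2.30 ± 0.17 (adjusted p = 1.27e-06). The 8 tested genes of the mitochondrial genome did not follow at the same size. Their median was 0.50, and only mt-Co1 (1.24 ± 0.26, adjusted p = 0.00169) and mt-Nd1 (0.89 ± 0.31, adjusted p = 0.0247) were called higher. The call of mt-Nd1 was lost without marrow library 2 (adjusted p = 0.0849) or 3 (0.0538), or lung library 1 (0.108) or 3 (0.102), and its difference was 1.35 without lung library 2. In lung library 2 mt-Nd1 stood at 916 CPM, within the marrow range of 898 to 1254, against 433 and 401 in the others, and without that library 6 mitochondrial genes were called higher. The other 5 mitochondrial protein genes had 0 to 18 counts in each control library. Whether reads of this genome were lost in mapping or counting was not tested, so the size of the mitochondrial differences is uncertain.

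Skeletal genes formed the second set on the marrow side. Of 17 osteolineage genes, 16 were higher and 1 was lower, with a median of 4.92. Bglap, which encodes the bone matrix hormone osteocalcin, measured 859, 570 and 1552 CPM in marrow and 0.391, 0.883 and 0.703 in lung (10.54 ± 1.05, adjusted p = 7.98e-06). Bglap and Bglap2 are close copies, so counts may be split between them. Ibsp (bone sialoprotein), with 1023, 485 and 2133 CPM against 2.0, 3.57 and 2.48, and Dmp1, a matrix protein of osteocytes, with 60.1, 46.7 and 160 against 0.521, 0.499 and 0.296, followed the same order of libraries, marrow library 3 highest and 2 lowest (8.82 ± 0.61 and 7.65 ± 0.76). Postn, periostin, was the member that was lower (-2.11 ± 0.55, adjusted p = 0.00611), and its groups overlapped, since lung library 2 stood at 65.9 CPM and marrow library 1 at 68.7. Of 8 tested cartilage genes, 7 were higher, with a median of 6.13, or 5.80 with Acan at its bound. Col2a1, the main cartilage collagen, measured 480, 270 and 671 CPM against 0.304, 0.422 and 0.296 (10.42 ± 0.80, adjusted p = 1.49e-06). Comp and Chad varied widely within marrow. Comp measured 328, 139 and 8.08 CPM against 0.999, 0.691 and 1.04 in lung, and Chad 265, 51.0 and 4.01 against 1.17, 3.95 and 6.06. Without marrow library 1, only 4 cartilage genes of 10 tested were called, the median was 3.53, and Chad lost its call (2.86, adjusted p = 0.0547, against 4.83 with it). Of 6 osteoclast genes, 1 was higher, 2 lower and 3 not called, and the higher one was Acp5, the phosphatase of bone-resorbing cells, with 508, 423 and 450 CPM against 8.69, 5.33 and 7.95 (5.97 ± 0.40). Of 14 genes of marrow reticular cells and adipocytes, 6 were higher, 3 were lower and 5 were not called, with a median of 1.21. Cxcl12, the chemokine that holds stem cells in the marrow, measured 1969, 1745 and 1391 CPM against 209, 152 and 200 (3.19 ± 0.32, adjusted p = 8.63e-06). Kitl, the stem cell factor made by marrow stroma and endothelium, went the other way, with 30.0, 18.8 and 18 CPM against 33.9, 88.3 and 63.4 (-1.47 ± 0.33, adjusted p = 0.00216).

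**Figure D3:**
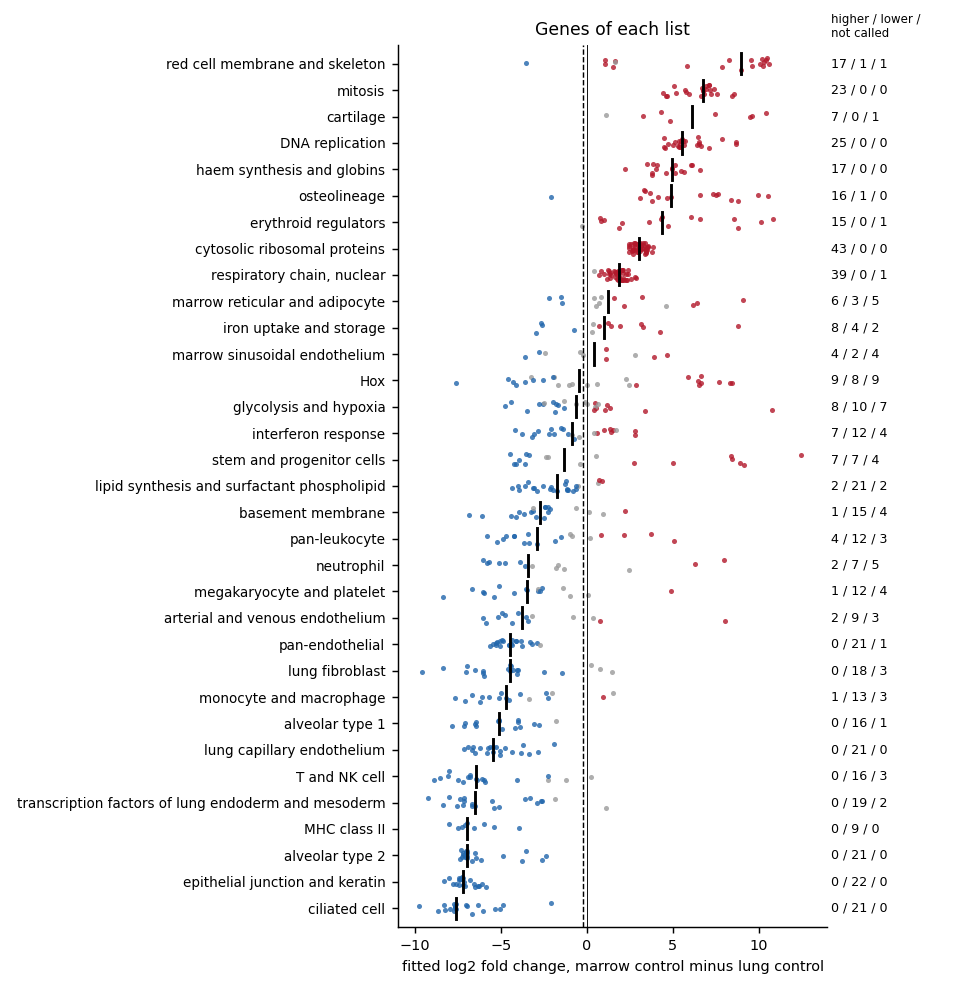
Fitted log2 fold change, marrow minus lung, of each tested gene in 33 lists (red called higher in marrow, blue called lower, grey not called), with a bar at the list's median and the counts at the right; the dashed line marks the median of all tested genes, -0.20. Red cell membrane, mitosis and cartilage lists lie at the top with medians of 8.99, 6.78 and 6.13, and ciliated cell, junction and type 2 lists lie at the bottom.

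Endothelial genes were mostly lower in marrow. Of 22 pan-endothelial genes, 21 were lower and Mmrn2 was not called (-2.73 ± 1.15, adjusted p = 0.0556), with a median of -4.46 and no gene whose groups overlapped. Among all tested genes, 74.8% likewise had no overlap between the groups. Cdh5 itself, whose promoter drives the Cre of this line, measured 3.53, 6.53 and 4.67 CPM in marrow and 75.3, 348 and 140 in lung (-5.26 ± 0.81, adjusted p = 0.000181). Pecam1 (CD31), an adhesion molecule of endothelial junctions, measured 8.41, 14.8 and 9.70 CPM against 250, 889 and 325 (-5.48 ± 0.91, adjusted p = 0.000318). Lung library 2 was the highest lung library for both, and it was also highest for the VEGF receptor Kdr, with 568 CPM against 153 and 333. Without it, 20 of the 22 genes were lower in marrow and the median was -3.78.

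All 21 genes of lung capillary endothelium were lower in marrow, with a median of -5.45. Car4, a carbonic anhydrase on the luminal face of capillaries, measured 0.279, 4.07 and 0.120 CPM against 109, 253 and 274 (-7.13 ± 1.34, adjusted p = 0.000745), so that marrow library 2, the one with most type 2 transcripts, was again highest in marrow. Bmpr2, a receptor for bone morphogenetic proteins that is mutated in hereditary pulmonary hypertension, measured 4.0, 4.27 and 3.53 CPM against 58.1, 190 and 69.0 (-4.75 ± 0.43, adjusted p = 4.49e-06). Of 14 arterial and venous genes, 9 were lower, 2 higher and 3 not called, with a median of -3.78. Hey1, a Notch target of arteries, and Ephb4, a receptor of veins, were lower by 4.33 and 4.03. Ackr1, the Duffy chemokine receptor of venules and also of erythroid cells, was higher in marrow, at 108, 94.0 and 132 CPM against 0.217, 0.844 and 0.185 (8.04 ± 1.03, adjusted p = 4.75e-05). Fbln5, an elastic fibre protein also made by fibroblasts, was called higher (0.79 ± 0.29, adjusted p = 0.0298). That call was lost without any 1 of the marrow libraries (adjusted p of 0.0651, 0.0660 and 0.0652), or without lung library 1 (0.0809) or 2 (0.115).

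The list of marrow sinusoidal genes was the endothelial list that leaned least to lung, with 4 of 10 higher in marrow, 2 lower and 4 not called, and a median of 0.43. Stab2, a scavenger receptor of sinusoids, measured 15.5, 9.14 and 36.7 CPM in marrow and 0.739, 2.23 and 1.11 in lung (3.90 ± 1.13, adjusted p = 0.0103). Vcam1, an adhesion molecule of sinusoids and of marrow macrophages and stroma, measured 152, 112 and 143 CPM against 72.1, 45.4 and 68.7 (1.12 ± 0.22, adjusted p = 0.000888). Stab1, the relative of Stab2, was lower in marrow (-2.78 ± 0.89, adjusted p = 0.0171), a call lost without marrow library 1 (adjusted p = 0.0617) or 2 (0.0542) or lung library 2 (0.0802). Dnase1l3, a secreted nuclease, was higher (4.65 ± 1.48, adjusted p = 0.0169) on 132 counts in marrow and 7 in lung, a call lost without marrow library 3 (adjusted p = 0.0541), lung library 1 (0.0613) or 3 (0.0568). The number called higher in this list was 2 without marrow library 3, lung library 1 or lung library 3. Of 6 lymphatic genes, Lyve1 and Ccl21a were lower in marrow (-6.60 ± 1.46 and -6.58 ± 1.46). Both had most of their marrow counts in library 2, and without it the differences were -10.32 and -12.15.

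Leukocyte genes were lower in marrow in most lists, although marrow is where leukocytes form. Of 19 pan-leukocyte genes, 12 were lower, 4 higher and 3 not called, with a median of -2.89. Ptprc (CD45), carried by nearly all leukocytes, measured 7.86, 5.22 and 2.51 CPM in marrow against 46.5, 27.0 and 42.5 in lung. The groups did not overlap (-2.89 ± 0.98, adjusted p = 0.0223), but the call was lost without marrow library 2 (adjusted p = 0.0632) or 3 (0.0774). The 4 higher genes included Ikzf1, a zinc finger factor of lymphoid and erythroid precursors (5.08 ± 0.54), and Rac2, a small GTPase of blood cells (2.19 ± 0.24). T and NK cell genes were 16 lower of 19 tested, none higher, with a median of -6.45, or -6.01 with the 3 genes at 0 in a group placed at their bounds. Cd3e, of the T cell receptor complex, had 0 counts in marrow and 148 in lung, at least 37.7-fold higher in lung. Without marrow library 2 the difference of Gzma, a granzyme of killer cells, was -11.38 in place of -7.53. B cell genes were 10 lower of 15, with a median of -4.0. Ms4a1 (CD20) had 1 count in marrow and 405 in lung, a ratio of 309 (95% counting interval 55.2 to 12248).

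Of 17 monocyte and macrophage genes, 13 were lower, 1 was higher and 3 were not called, with a median of -4.72, or -4.55 with 1 gene at its bound. Lyz2, a lysozyme of macrophages and also of type 2 cells, measured 82.8, 468 and 115 CPM in marrow against 27419, 32268 and 32089 in lung (-7.11 ± 0.94, adjusted p = 6e-05), again highest in marrow library 2. Of 14 alveolar macrophage genes, 10 were lower, with a median of -4.87, and Fabp4, a fatty acid carrier also of adipocytes and capillaries, and Il1rn were higher (4.28 ± 0.59 and 1.61 ± 0.38). Without marrow library 1 the median of that list was -7.35. Of 6 tested genes of mast cells, basophils and eosinophils, 2 were lower and 4 not called, with a median of -3.82, or -2.60 with bounds.

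Neutrophil granule genes and progenitor genes set marrow library 1 apart. Camp, an antimicrobial peptide of neutrophil granules, measured 23.6 CPM there and 0.0502 and 0.359 in the other marrow libraries, against 0.0434, 0 and 0.0370 in lung, and Ngp measured 34.7, 0.552 and 0.180 against 0.348, 0.0384 and 0.0740. Both were called higher in marrow (7.99 ± 2.45, adjusted p = 0.014, and 6.27 ± 2.18, adjusted p = 0.0255). Without marrow library 1 they were 2.68 (adjusted p = 0.24) and 1.28 (0.556). The call of Camp was also lost without lung library 2 (0.0502), and that of Ngp without lung library 1 (0.0521), 2 (0.0799) or 3 (0.0823). Of 14 neutrophil genes tested, 7 were lower and 2 higher, with a median of -3.40, and without marrow library 1, 11 of 16 were lower and none was higher. None was called higher by limma-voom. With only the 6 control libraries, 12 neutrophil genes passed the filter and none was called higher, but Camp and Ngp were not among those tested. Csf3r, the receptor of the granulocyte growth factor, measured 1.21, 0.552 and 0 CPM against 55.2, 23.7 and 43.6 (-6.06 ± 1.35, adjusted p = 0.00229). Of 18 stem and progenitor genes, 7 were higher, 7 lower and 4 not called, with a median of -1.34, shares not far from those of all genes. Elane, a serine protease of granulocyte precursors, had 1789 counts in marrow (63.5, 7.58 and 16.2 CPM) and 0 in lung, at least 781-fold higher. Mecom, Gata2 and Meis1, factors of stem cells that are also active in endothelial or lung cells, were lower by 4.11, 3.60 and 4.47, and so was Cebpa, a factor of granulocyte precursors and lung epithelium, by 3.95.

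Genes of lung epithelium were lower in marrow almost without exception. All 21 type 2 genes, all 22 genes of epithelial junctions and keratins and all 21 ciliated cell genes were lower in marrow, with medians of -6.97, -7.24 and -7.63. Sftpc, surfactant protein C, measured 151427, 121477 and 154643 CPM in lung and 306, 1958 and 516 in marrow (-7.27 ± 0.96, adjusted p = 6.11e-05). It alone took 13.6% ± 1.68 (SD, n = 3) of the lung counts and 0.0877% ± 0.0825 of the marrow counts. Scd1, a desaturase that makes lipid for surfactant, measured 5609, 4583 and 4997 CPM against 50.3, 91.7 and 31.5 (-6.45 ± 0.41, adjusted p = 5.3e-07). Epcam, an adhesion molecule of epithelia, measured 210, 155 and 172 CPM against 0.465, 2.11 and 0.419 (-7.47 ± 1.06, adjusted p = 0.000101), and Cdh1, E-cadherin, 654, 559 and 600 against 0.976, 9.14 and 1.56. Both groups were tight in lung, and in marrow library 2 stood apart in each of these genes. Without it the medians of the type 2 and junction lists were -8.27 and -8.67, with every gene still called.

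Type 1 and secretory cell genes were lower as well, in 16 of 17 and 15 of 16. Ager, a receptor abundant on type 1 cells, measured 1104, 962 and 1286 CPM in lung against 3.11, 17.3 and 3.71 in marrow (-7.12 ± 0.76, adjusted p = 1.28e-05). Emp2, a membrane protein of type 1 cells and capillaries, had the smallest p of its list (-4.95 ± 0.22, adjusted p = 1.71e-07) with 23.6, 26.3 and 16.3 CPM in marrow against 632, 634 and 778. Scgb1a1, the club cell secretoglobin, measured 357, 740 and 512 CPM against 2.60, 11.2 and 3.41 (-6.54 ± 0.93). The exception was Aldh1a1, a retinal dehydrogenase of several tissues, called higher in marrow with 374, 387 and 297 CPM against 239, 174 and 90.2 (1.07 ± 0.37, adjusted p = 0.0240). It lost the call without marrow library 1 (adjusted p = 0.0619) or 2 (0.0674) or lung library 2 (0.0570) or 3 (0.0857). Of 16 genes of epithelial ion and water transport, 13 were lower with a median of -5.52, and the chloride channel Clcn2 was higher, at 103, 149 and 76.5 CPM against 8.47, 3.76 and 6.73 (4.12 in log2 fold change). Of 6 basal and neuroendocrine genes, 5 were lower, with a median of -5.50, or -5.18 with bounds.

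Ciliated cell genes separated the lung libraries from one another. Lung library 1 held 0.373% of its counts in this list, against 0.115% and 0.0575% in libraries 2 and 3, and the marrow libraries held 0.00384%, 0.00318% and 0.00181%. Drc1, of the complex that regulates the beat of cilia, (chr5:30281388-30366695) had the largest fall among abundant genes, with 109, 28.7 and 13.2 CPM in lung against 0.139, 0.151 and 0.0598 in marrow (-8.66 ± 0.97, adjusted p = 1.76e-05). Cfap161, Rsph1, Dynlrb2, Ccdc153, Mapk15 and Nme5, 6 more of the 15 largest falls and all genes of cilia, showed the same order of the lung libraries as Drc1. Others of the 15 were genes of the epithelial surface, Plet1, Prss8, Tmprss2, Rasef, Clic6 and the cytochrome Cyp2s1, with Tinag and Sec14l3. For Prss8, Rasef and Tinag the lung libraries stayed within a factor of 2. Plet1, Tmprss2, Cyp2s1, Clic6 and Sec14l3 had the order of the cilia genes, for example Cyp2s1 at 1126, 288 and 158 CPM. That order was thus not particular to cilia genes. Without lung library 1 the ciliated list kept all 21 calls with a median of -6.54.

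Letters bound by forkhead factors, TGTTTAC or GTAAACA, are shown for 3 genes of the type 2 and ciliated lists, which were chosen after the matches were seen. Levels of forkhead factors did not all move one way. Foxa1, Foxp1 and Foxo1 were lower in marrow (-7.38, -3.61 and -3.11), as were Foxj1 of the ciliated list and Foxf1 of the lung capillary list. Foxc1 and Foxo3 were higher (2.18 and 1.01). The stretches were again read from the RefSeq table of GRCm38.p6, with the motif in capitals.
Lamp3 (chr16:19706366-19706485, minus strand): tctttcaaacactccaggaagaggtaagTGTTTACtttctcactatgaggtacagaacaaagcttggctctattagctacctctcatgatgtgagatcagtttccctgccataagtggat
S100g (chrX:162964600-162964719, minus strand): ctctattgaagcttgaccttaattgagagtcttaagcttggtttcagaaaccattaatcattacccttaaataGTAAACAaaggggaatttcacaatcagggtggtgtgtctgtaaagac
Cfap43 (chr19:47837362-47837481, minus strand): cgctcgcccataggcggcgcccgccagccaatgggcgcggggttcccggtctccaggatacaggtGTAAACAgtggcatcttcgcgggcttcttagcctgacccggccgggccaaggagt
The motif begins 92 bases before the start of Lamp3, a lysosomal protein of type 2 cells, 47 before S100g, a calcium-binding protein, and 55 before Cfap43, a protein of cilia. Of 39 windows of 34 genes in the 2 lists, these 3 (7.69%) held it within 120 bases of the start, against 0.859% of all windows, and 7 (17.9%) held it in 300 bases, against 2.79%. The type 2 and ciliated lists had medians of -6.97 and -7.63. Other lists of lung epithelium were also mostly lower in marrow, with medians of -5.10 (type 1), -6.46 (club cell), -7.24 (junction) and -5.52 (ion transport). In that order, they held the motif in 0 of 19, 0 of 11, 0 of 18 and 0 of 13 windows of 300 bases. Lung fibroblast genes held it in 3 of 18 (16.7%).

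Lung mesenchyme and matrix were lower in marrow too. Of 21 lung fibroblast genes, 18 were lower and Col13a1, Dcn and Lum were not called, with a median of -4.47. Tcf21, a factor of lung fibroblasts, measured 0.186, 0.10 and 0.120 CPM in marrow against 56.3, 15 and 73.0 in lung (-8.40 ± 0.87, adjusted p = 1.06e-05), and Npnt, a basement membrane ligand, 19.2, 8.63 and 12.9 against 176, 174 and 305. Pdgfra, the PDGF receptor of fibroblasts in both organs, differed less (-1.47 ± 0.43, adjusted p = 0.0112) with groups that overlapped, and was -0.92 (0.0630) without lung library 3. Without that library 2 fibroblast genes were called higher. Of 16 pericyte and smooth muscle genes, 10 were lower and Rgs5, a pericyte regulator of G proteins, was higher (2.86 ± 0.53), with a median of -1.79. Only 6 were lower without marrow library 2 or 3 or lung library 1. Of 20 basement membrane genes, 15 were lower and 1 higher, with a median of -2.73. The laminin chains Lama5, Lamb3 and Lamc1 were lower by 4.1, 6.85 and 2.45. The higher gene was Sparc, a matrix protein made in quantity by bone cells, with 6286, 2982 and 5922 CPM against 1189, 806 and 1230 (2.24 ± 0.29, adjusted p = 6e-05). All 5 mesothelial genes were lower. Among them Lrrn4 lost its call without marrow library 1 (0.0547) or 3 (0.0547), and its difference was -10.08 in place of -6.61 without marrow library 2.

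Transcription factors of lung were lower in marrow, and those of blood and skeleton were lower more often than higher. Of 21 factors of lung endoderm and mesoderm, 19 were lower in marrow, with a median of -6.53. Nkx2-1, required for lung formation and surfactant gene activity, measured 151, 185 and 207 CPM in lung against 0.372, 2.81 and 0.419 in marrow (-7.22 ± 0.89, adjusted p = 3.71e-05), Foxa1 110, 68.9 and 107 against 0.139, 1.36 and 0.180, and Elf5, an ETS factor of distal epithelium, had 1 count in marrow and 1023 in lung. Sox9, which also acts in cartilage, was not called (1.09). Of 20 factors of blood and skeleton, 11 were lower, 3 higher and 6 not called. The higher ones were Ikzf1, Dlx3 and Twist1, and among the lower ones were Spi1 (PU.1), a master factor of myeloid cells (1.02, 0.201 and 0.778 CPM against 23.3, 9.02 and 20.7), Foxo1 and Ets1.

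Hox genes, which mark position along the body axis by their order in each cluster, split by cluster and by place in it. Of 39 Hox genes, 26 were tested, with 9 higher in marrow, 8 lower and 9 not called, among the last Hoxb13 with 0 counts in all 6 libraries. In the Hoxa cluster, Hoxa2, Hoxa4, Hoxa5 and Hoxa6 were lower in marrow and Hoxa9, Hoxa10 and Hoxa11 were higher. Hoxa5, needed for lung development, measured 1.07, 1.71 and 1.5 CPM in marrow against 18.9, 43.4 and 23.2 in lung (-4.32 ± 0.43, adjusted p = 8.19e-06). Hoxa9, known from blood progenitors, measured 5.39, 4.57 and 9.58 CPM against 0, 0.0384 and 0, and its 367 counts against 1 gave a ratio of 480 (95% counting interval 85.7 to 19030). Hoxa10 measured 12.3, 7.48 and 15.6 CPM against 0.0434, 0.0384 and 0.0740 (7.68 ± 0.56, adjusted p = 1.11e-06). Hoxa7, which lies between, was not called (-0.88 ± 0.41, adjusted p = 0.0804). In the Hoxb cluster the 4 genes called, Hoxb4, Hoxb5, Hoxb6 and Hoxb7, were all lower in marrow, and in the Hoxc cluster the 6 called, Hoxc5, Hoxc6, Hoxc8, Hoxc9, Hoxc10 and Hoxc11, were all higher. Hoxb5, another gene of lung development, measured 0, 0.251 and 0 CPM against 16.8, 16.9 and 20.2 (-7.63 ± 0.84, adjusted p = 1.54e-05), and -11.78 without marrow library 2, which held its 5 marrow counts. Hoxc10 had 101 counts in marrow and 0 in lung, at least 44.1-fold higher. No Hoxc gene exceeded 0.192 CPM in a lung library, while the marrow levels of the 7 Hoxc genes tested had means of 0.292 to 1.83 CPM, a low range. Calls of 4 weakly expressed genes depended on single libraries: Hoxa6 lost its call without marrow library 2 (adjusted p = 0.103) or 3 (0.10) or lung library 3 (0.142), Hoxb4 without 5 of the 6 libraries in turn (0.0502 to 0.0873, all but marrow library 2), Hoxb6 without marrow library 1 (0.0521) or 2 (0.0648), and Hoxb7 without marrow library 1 (0.0629) or 3 (0.0846) or lung library 1 (0.0612) or 3 (0.0976). Without marrow library 3 the difference of Hoxb6 was -6.70 in place of -4.15. With marrow library 1, marrow library 3 or lung library 3 left out, 5 Hox genes were lower in place of 8. Counting ignored the strand, so antisense transcripts, which the Hox clusters contain, cannot be told apart from these genes.

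**Figure D4:**
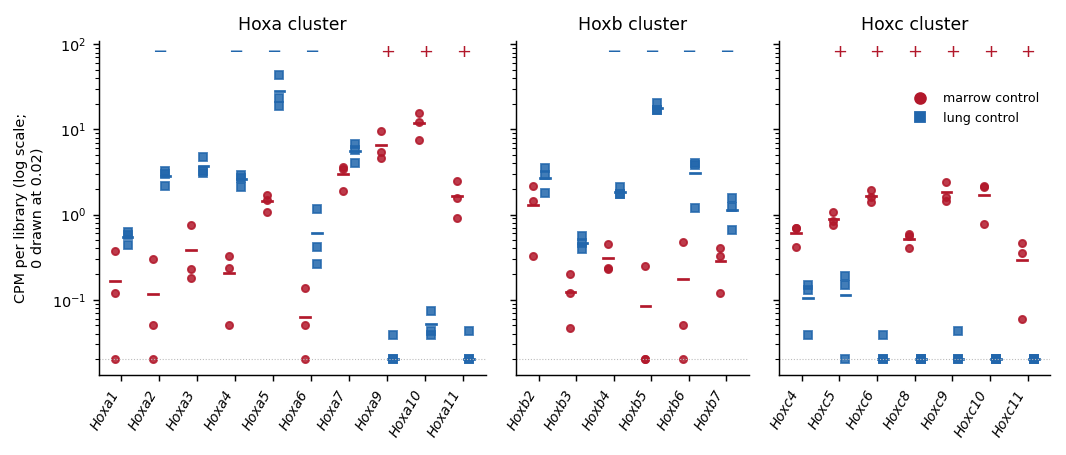
CPM per library (log scale, 0 drawn at 0.02) of the tested genes of the Hoxa, Hoxb and Hoxc clusters in order along each cluster, marrow control as circles and lung control as squares, with bars at the means and a plus or minus sign for genes called higher or lower in marrow. Signs change within the Hoxa cluster between Hoxa6 and Hoxa9, are all minus in Hoxb and all plus in Hoxc.

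Pairs of related genes were set side by side. Of 28 chosen pairs, 17 had the first member higher and the second lower in marrow, and 2 had the reverse. The pairs were chosen with earlier results of these data known, so these counts do not show how often families split. Most of the 17 set a red cell form against a form of other cells. The first enzyme of haem synthesis was higher as Alas2 and lower as Alas1, its housekeeping form, with 30.0, 20.6 and 16.2 CPM in marrow against 492, 226 and 235 in lung (-3.83 ± 0.38, adjusted p = 7.21e-06). The spectrin Sptb was higher while its relative Sptbn1 was lower by 4.19, Ank1 was higher and Ank3 lower by 5.43, and Slc4a1 was higher and Slc4a2 lower by 1.78. Pyruvate kinase was higher as Pklr, the form of red cells and liver, with 4647 counts in marrow and 3 in lung, a ratio of 2028 (95% counting interval 694 to 9838), and lower as Pkm (-2.53 ± 0.20, adjusted p = 1.61e-06). Car2, a carbonic anhydrase of red cells and osteoclasts, measured 9126, 9197 and 9902 CPM against 141, 186 and 185 (5.78 ± 0.48), the opposite of Car4. Rhag, of the Rh complex, was higher by 9.58, and its epithelial relative Rhbg had 73 counts in lung and 0 in marrow, at least 18.6-fold higher in lung. Cox4i1, the common form of a cytochrome oxidase subunit, was higher (2.07 ± 0.27) and Cox4i2, the form of lung and pericytes, lower (-3.71 ± 0.57). The reverse pairs were Tubb1, the platelet tubulin, lower beside Tubb4b higher (-6.02 and 1.71), and Ldhb lower beside Ldha higher (-4.76 and 0.43). The Ldha call was lost without marrow library 2 (adjusted p = 0.127) or without lung library 1 (0.0790), 2 (0.0858) or 3 (0.0697). Both PDGF receptors, both lysozymes, both stearoyl-CoA desaturases and the cadherins Cdh1 and Cdh5 were lower together, Tfr2 and Tfrc were higher together, and Myb and Mybl1 were not called. Myb was called higher (1.69, adjusted p = 0.0230) without lung library 1, where it stood at 45 CPM.

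**Figure D5:**
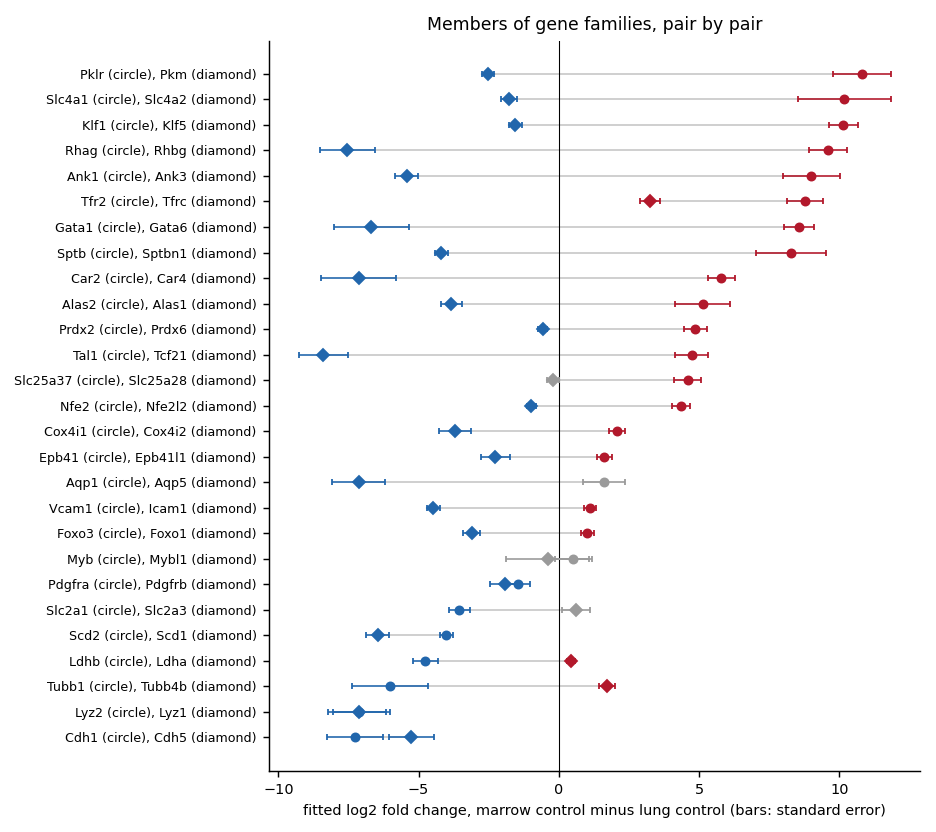
Fitted log2 fold change, marrow minus lung, with standard error bars, of both members of 27 of the gene pairs, red for called higher in marrow, blue for called lower and grey for not called. In 16 pairs the circle lies right of 0 and the diamond left of it with both called, among them Pklr and Pkm at 10.80 and -2.53.

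Metabolic lists differed from one another. Of 25 genes of glycolysis and the hypoxia response, 8 were higher, 10 lower and 7 not called, with a median of -0.65, shares close to those of all genes. Pfkm and Hk1, isoforms used in red cells, were higher by 3.37 and 1.36, and Hk2 was lower (-4.43 ± 0.33, adjusted p = 1.21e-06) at 0.790, 1.0 and 1.5 CPM against 20.9, 23.8 and 26.3. Of 25 lipid synthesis genes, 21 were lower, with a median of -1.75. Elovl1, which lengthens fatty acids, measured 147, 174 and 145 CPM against 1285, 1272 and 1427 (-3.09 ± 0.16, adjusted p = 2.25e-07). Lpin1 and Pcyt1a were higher. Lpin1 (0.71, adjusted p = 0.0497) lost the call without any library but marrow library 3 (0.0778 to 0.193). Of 26 enzymes that handle foreign compounds and oxidants, 17 were lower and 6 higher, with a median of -3.06. The antioxidant enzymes Gpx1 and Prdx2, abundant in red cells, were higher, Gpx1 at 5956, 7876 and 9053 CPM against 669, 506 and 508 (3.77 ± 0.32) and Prdx2 at 3064, 4223 and 4666 against 154, 145 and 113 (4.86 ± 0.41). Catalase (Cat) was lower, at 125, 118 and 114 CPM against 747, 727 and 937 (-2.76 ± 0.15, adjusted p = 2.5e-07).

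Antigen presentation and innate defence were on the lung side. All 9 MHC class II genes were lower in marrow, with a median of -6.95, or -6.55 with 1 gene at its bound. Cd74, the invariant chain, measured 6.23, 69.4 and 9.75 CPM against 4125, 4504 and 4354 (-7.25 ± 0.96, adjusted p = 6.12e-05), highest in marrow library 2, and type 2 cells of mice are known to express it. Class I genes differed less, with 6 of 10 lower and a median of -0.94. Of 23 interferon response genes, 7 were higher and 12 lower. Oasl1 and Rsad2 were higher by 2.79 and 2.78 while Oasl2, Ddx58 and Gbp2 were lower by 2.19, 2.85 and 3.75. The number higher was 4 without marrow library 1, lung library 1 or lung library 3. Immediate early and heat shock genes, which can respond to tissue handling, made up a joint list of 25, of which 15 were lower and 5 higher. All 5 higher ones were heat shock genes and all 15 lower ones were early response genes. Jun, an early response factor, measured 732, 836 and 772 CPM in marrow against 1672, 2242 and 2469 (-1.45 ± 0.22). The heat shock genes Dnajb1 and Hspa1b were higher (2.60 ± 0.34 and 2.51 ± 0.42), with marrow library 1 lowest in its group at 687 and 233 CPM. Of 20 complement and defence genes, 18 were lower, and C3, the central complement protein, measured 36.2, 27.2 and 15 CPM against 387, 334 and 441. Of 26 growth factor and morphogen genes, 18 were lower and Tgfb1 was higher (1.04 ± 0.35, adjusted p = 0.0211), a call lost without marrow library 2 (0.0869) or lung library 1 (0.0888) or 3 (0.0859). Areg, a ligand of the EGF receptor, measured 0.0930, 0.452 and 0.0598 CPM in marrow against 31.6, 34.5 and 36.5.

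Some transcripts were seen in 1 tissue only. Requiring a mean of 1 CPM or more in one group and 0 counts in all 3 libraries of the other, there were 63 in marrow and 203 in lung. After Elane, the marrow ones with the highest levels that carry gene names were Rnf212, a ligase of meiosis, Slc13a5, a citrate transporter, and Slc30a10, a manganese exporter of the liver and of red cell precursors. Slc30a10 measured 10.3, 9.34 and 9.58 CPM and was at least 248-fold higher in marrow, and Slc13a5 measured 14.3, 7.73 and 8.98 CPM and was at least 267-fold higher. Asb17, Eya4, Dkk1 and Panx3 followed, the last 2 known from bone. In lung the leading ones were Cfap53, Frmpd2, Dcdc2a, Lrrc43 and Ankrd66, and all 5 were highest in lung library 1, as the ciliated list was. Cfap53, a protein of cilia, measured 38.2, 11.1 and 5.44 CPM and was at least 335-fold higher in lung. Floors and intervals cover counting error only.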

How the data were processed

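Counts per gene symbol were deposited by the authors as raw whole numbers, 1 file per library, with no normalisation. Per the submitters' processing notes, bcl2fastq and STAR were used with mm10. Their versions, like the annotation, the counter and any filter, are stated in none of the sources used. The file names mark the counting as unstranded. The fit used edgeR 4.0.16 under R 4.3.3 (quasi-likelihood test, robust, TMM, 4 groups of 3 libraries, 8 residual degrees of freedom). Genes passed the edgeR filter by group (minimum count 10, minimum total 15), and p-values were Benjamini-Hochberg adjusted over 18147 genes. CPM is the TMM-scaled count. Errors of log2 fold changes are SE. Positions came from GENCODE M21, which holds 53292 of the 55291 symbols, and promoter windows (12633 tested genes) from RefSeq. In simulated data with 100 genes changed 4-fold and 100 changed 2-fold, 41 and 7 were called, with 1 false call. All other genes were left unchanged there, whereas 64.2% of genes were called in the real data. These counts therefore do not give the power or error of the comparison itself.

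The comparison, 51 gene lists and 28 pairs were chosen with earlier results of these data known, and no list was tested as a set. Named genes were the 15 largest changes each way (50 CPM or more on the higher side and 0.1 on the lower, no overlap, predicted genes, clones and pseudogenes passed over), up to 5 members of each list with the smallest p and up to 3 of the less frequent direction, all Hox genes, the pairs, fixed markers and the 8 leading transcripts seen in 1 tissue, each way. Cd3e, Cfap43, Col13a1, Dcn, Foxf1, Foxj1, Hbb-bs, Lamp3, Ldb1, Lum, Mmrn2, S100g, Sdha and Sox9 fall outside this rule and were chosen after their values were seen. Alternatives used limma 3.58.1 and DESeq2 1.42.0, and matplotlib 3.10.9 drew the plots. Some listed genes are not reported here by name.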

Additional observations from a re-analysis of the deposited data

How the results depend on the processing

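Calls and list medians were recomputed under 17 alternatives, except that a gene dropped by a filter had no value there. Promoter shares and transcripts seen in 1 tissue had other limits, and shares of counts and pseudogene counts had no alternative. Counts of genes higher in marrow ranged from 4375 (tested against a 1.5-fold change) to 6040 (limma-voom), and of genes lower from 4795 (a filter of 5 CPM in 3 libraries, with 4385 higher) to 7036 (limma-voom). Leaving out 1 library gave 4548 to 5006 higher and 5706 to 5987 lower. Without a filter, 4636 were higher and 6692 lower of 33720. With the replicate block there were 5155 and 6100. After subtraction of the group mean, same-numbered libraries of the 2 tissues correlated at 0.039, 0.183 and -0.005, and the other combinations at -0.183 to 0.170. With 3 libraries per group, such centred values cannot decide whether the numbers pair samples. Scaling moved the overall median between -0.18 and -0.30. Of 354 named genes, 314 kept their call in every alternative in which they were tested. Of 5954 gene and alternative combinations, 102 lost a call, 26 gained one and 7 changed sign, each in a gene that was not called: Hoxd9 (0.60 to -2.45 and -0.01), Mybl1 (-0.40 to 0.14 and 0.24), mt-Nd3 (1.05 to -0.02) and mt-Nd5 (0.30 to -0.02 and -0.01), each with 1 library left out.

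Of 50 list medians, 34 never moved by more than 1 SD and 2 changed sign, osteoclast (0.22, and -0.72 with no filter) and Hox (-0.44, and 2.87 with the 5 CPM filter, which tests 8). The SD of a list was the root sum of squares of the 2 groups' SD of the per-library median log2 CPM. It is wider for lists that vary between libraries, so such lists stay within 1 SD more easily. With the 5 CPM filter, which drops weak genes, medians were -4.72 for lymphatic, -2.84 for megakaryocyte, -2.57 for alveolar macrophage, -2.29 for T and NK cell and -0.12 for glycolysis genes. With no filter they were 0.55 for iron, 0.68 for reticular, -3.81 for basal and neuroendocrine and -3.51 for xenobiotic genes. With limma-voom they were -1.51 for mast cell, -5.71 for alveolar macrophage and -6.01 for T and NK cell genes, and with only the 6 control libraries -6.03 for mast cell genes. The cause of these moves was not tested beyond the number of genes each filter leaves.

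With 1 control library left out at a time, list medians ranged from -7.35 to -4.61 for alveolar macrophage, -7.56 to -6.04 for T and NK cell, -5.83 to -4.72 for basal and neuroendocrine, 3.53 to 5.88 for cartilage, -6.10 to -4.07 for lung fibroblast, -9.07 to -6.10 for mesothelial and -3.70 to -2.72 for xenobiotic genes, and from -7.87 to -6.00 for lung transcription factors. Over the same libraries left out, Hoxd9 ranged from -2.45 to 3.38 and mt-Nd3 from -0.02 to 3.14. Counts of called members also moved by more than 1.5 times elsewhere. With the 5 CPM filter, lower genes numbered 7 of 9 for monocyte, 4 of 8 for alveolar macrophage, 6 of 7 for B cell, 2 of 4 for T and NK cell, 3 of 3 for basal and 3 of 3 for mesothelial lists, and Hox had 4 higher and 3 lower. Without a filter 4 of 11 cartilage and 5 of 25 glycolysis genes were higher, and 5 of the latter against a 1.5-fold change. With limma-voom or only the 6 control libraries, 4 lymphatic genes were lower and no neutrophil gene was higher. In the latter setting Camp and Ngp did not pass the filter and were not tested.

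Transcripts seen in 1 tissue numbered 117 in marrow and 388 in lung at 0.5 CPM, and 11 and 23 at 5 CPM. With a log2 fold change limit of 3 in place of 2, promoter windows with the forkhead motif were 2.20% for marrow and 3.14% for lung, which turns their order, those with the GC box 19.1% and 18.1%, and those with the GATA motif 9.99% and 6.79%. Depth limits the weakly expressed genes, since a floor of 3 counts stands for 0.0394 CPM in lung and 0.0516 CPM in marrow over the 3 libraries.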

Other observations

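Transcripts of lung epithelium were present in the marrow libraries, at levels relative to lung that differed between the libraries. For the 21 type 2 genes, the median marrow level as a percentage of the mean lung level was 0.246% in marrow library 1, 1.76% in library 2 and 0.40% in library 3. For the 22 junction and keratin genes it was 0.270%, 1.53% and 0.182%, for the 21 ciliated cell genes 0.145%, 1.28% and 0.159%, and for the 9 MHC class II genes 0.361%, 1.81% and 0.206%. Marrow library 2 was highest in these 4 lists, and also for lung capillary genes (1.59%, 3.11% and 0.986%) and T and NK cell genes (0%, 1.85% and 0%). Type 1 genes had another order, with 4.33%, 3.85% and 1.26%. The pan-endothelial genes had 3.32%, 4.30% and 5.21%, highest in library 3. In the other direction, the red cell membrane genes stood in the lung libraries at medians of 0.206%, 0.158% and 0.224% of their marrow level, and haem and globin genes at 4.21%, 3.55% and 3.21%.

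Processed pseudogenes, which are copies of transcripts inserted into the genome, leaned to marrow. Of 656 tested, 389 were higher in marrow and 26 lower, with a median log2 fold change of 2.04, against 4280 higher and 5718 lower of 14744 protein-coding genes, whose median was -0.39. Of 70 pseudogenes named for ribosomal proteins, 63 were higher and none was lower, with a median of 3.08, close to the 3.06 of the 80 protein-coding ribosomal protein genes, all of which were higher. Reads shared with near-identical parent genes make the pseudogene values uncertain.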
